A study of Mus musculus with 6 samples.

Results

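The miR-126 locus is described here in the vesicles that osteoblasts, the cells that build bone, release as they undergo apoptosis. The 4 entries of the deposited small RNA table named mmu-miR-126a-3p, mmu-miR-126a-5p, mmu-miR-126b-3p and mmu-miR-126b-5p were taken out of 1712 entries, of which 1528 carry a mouse miRNA name; the rule was that the name be miR-126a or miR-126b with any arm. The mmu- prefix, for mouse, is left out of most names below. All 4 come from a single place in the genome, so they are parts of 1 locus and not 4 independent miRNAs. The study compared vesicles of 2 genotypes, with 3 libraries each. The control is SIRT6f/f, in which both Sirt6 alleles are floxed and no Cre is named. The knockout is Prx1cre;SIRT6f/f, in which the same floxed alleles meet a Cre driven by the Prx1 enhancer, which is active in limb mesenchyme and its descendants. Both groups thus carry the floxed alleles. Per the labels' protocols, cells were driven into apoptosis and kept in serum-free medium for 48 h before the vesicles were collected by ultracentrifugation. The sources used here do not give the age or sex of the mice. Nor do they say that the replicates are separate cultures or mice, so the p-values measure only the spread between these libraries, which may be technical. Messenger RNA was not analysed here, so the loss of Sirt6, a histone deacetylase, could not be checked in these libraries.

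miR-126 is the best-known miRNA of blood vessel lining. It lies in an intron of Egfl7, a gene for a protein secreted by endothelial cells, and its 3p arm restrains Spred1 and Pik3r2, which are brakes on VEGF signalling. The 5p arm is also active in endothelial cells, where Dlk1 is among its targets, and miR-126 is found in blood progenitors and platelets too. In mouse the hairpin of miR-126b is annotated on the opposite strand of the same stretch of DNA.

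The sequences below show how the entries relate to each other. They are from RefSeq (GRCm38.p6); 3 of the 4 entries were matched by name, and miR-126a-5p was not. In the mature sequences the capitals mark the seed (bases 2 to 8), which guides a miRNA to its targets. In the hairpins the capitals mark the matched mature sequences.
miR-126a-3p: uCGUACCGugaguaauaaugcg
miR-126b-3p: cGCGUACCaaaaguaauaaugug
miR-126b-5p: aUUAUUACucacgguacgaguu
Mir126a hairpin: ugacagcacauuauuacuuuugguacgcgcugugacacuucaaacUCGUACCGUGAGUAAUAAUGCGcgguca
Mir126b hairpin: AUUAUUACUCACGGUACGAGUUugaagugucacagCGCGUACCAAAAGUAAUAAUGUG

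The Mir126a hairpin (73 bases) lies at chr2:26591357-26591429 on the plus strand and the Mir126b hairpin (58 bases) at chr2:26591363-26591420 on the minus strand. The reverse complement of the whole Mir126b hairpin was found within Mir126a, starting after its first 6 bases. Mature miR-126a-3p occupies chr2:26591402-26591423, and miR-126b-5p (chr2:26591399-26591420) is antisense to 19 of its bases. miR-126b-3p (chr2:26591363-26591385) is antisense to the other stem of the Mir126a hairpin and shares 0 positions with miR-126a-3p. In GENCODE M21 on GRCm38 the Mir126a hairpin is intronic in 8 transcripts of Egfl7 (in intron 7 of the longer ones, those with 10 exons), overlaps an exon of 1 transcript with a retained intron, and is not spanned by the other 10. The sources used here do not give the authors' build.

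The stems of a hairpin are largely complementary to each other. Because miR-126b-3p is antisense to the stem that faces miR-126a-3p, the 3p entries of both strands look alike. Without gaps, miR-126a-3p and miR-126b-3p overlapped over 22 bases with 5 mismatches, and their longest shared run was 10 bases. Whether the counting let reads with mismatches move between them was not stated in the sources used here. The seeds differ: CGUACCG in miR-126a-3p, GCGUACC in miR-126b-3p and UUAUUAC in miR-126b-5p. None of the other names among 1679 mature mouse miRNAs in RefSeq shares any of these seeds.

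Values are RPM, reads per 1000000 of all reads listed in a library. The libraries held 1352045 to 1838239 listed reads, so that 1 read was worth 0.544 to 0.740 RPM and 3 reads correspond to 1.63 to 2.22 RPM. Annotated miRNAs took 50.0% to 56.9% of the listed reads in the control and 37.2% to 47.2% in the knockout libraries, and knockout replicate 3 had the lowest share. Within these, 5 entries treated here as fragment-like rather than as ordinary miRNAs (miR-6236, miR-6238, miR-6239, miR-6240 and miR-3968) took 1.96% to 3.83% of the listed reads in the control and 6.42% to 7.62% in the knockout libraries. The most abundant of them were miR-6239 (log2 fold change 1.39) and miR-6236 (1.96), and miR-3968 alone lay below 0 (-1.49). Their summed share moved opposite to the miR-126 levels below, and its part in them was not tested. Mesenchymal miRNAs were abundant: 9 of 10 were listed, with a summed level of 79588 to 87876 RPM in control and 29683 to 60935 RPM in the knockout libraries. The cell type of the donor cells was not tested.

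The miR-126 locus was rare in these vesicles, and lower in every knockout than in every control library. Summed over the 4 entries, its level was 85.1, 105 and 89.7 RPM in control replicates 1, 2 and 3 and 52.2, 45.2 and 23.4 RPM in knockout replicates 1, 2 and 3. The groups did not overlap, and the widest gap within a group was that between knockout replicate 3 and the other two. These levels rest on 118, 142 and 146 reads in the control and 84, 80 and 43 reads in the knockout libraries. The exact Poisson 95% interval was 75.7 to 105 RPM in control replicate 3 and 41.7 to 64.7 RPM in knockout replicate 1; such intervals cover counting error only. The control mean was 93.3 ± 10.4 RPM and the knockout mean 40.3 ± 15.0 RPM (SD, n = 3 each), a ratio of 0.432, or 0.522 without knockout replicate 3. No p-value is given for this sum over chosen entries. In these bulk libraries, fewer vesicles from a cell type and less of the miRNA per vesicle cannot be told apart.

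Each entry was then tested in a fit over the whole table: limma on log2(RPM + 1) over the 1114 entries with at least 1 RPM in at least 3 libraries, with a Benjamini-Hochberg adjusted p under 0.05 as the threshold. All 4 entries entered this fit. None passed, where 4.85% of all tested entries did (2.69% lower and 2.15% higher in the knockout). At an unadjusted limma p under 0.05, 3 of the 4 entries would be called, and 223 of all 1114.

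The entry mmu-miR-126a-3p, the arm with the best-studied targets, had 29.6, 41.4 and 24.0 RPM in control and 18.7, 13.0 and 7.07 RPM in the knockout libraries, in the order of their replicates. The highest knockout library lay below the lowest control library. The means were 31.6 ± 8.91 and 12.9 ± 5.79 RPM (SD, n = 3 each), and the log2 fold change, here on the log2(RPM + 1) scale, was -1.29 ± 0.44 (SE, limma adjusted p = 0.0609, unadjusted p = 0.00339). It passed when knockout replicate 1 was left out (-1.58, limma adjusted p = 0.0472) and with a pseudocount of 5 RPM (-1.06, limma adjusted p = 0.0474). Over all its alternatives the adjusted p ran from 0.0472 to 0.490.

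The entry mmu-miR-126a-5p, the partner arm of the same hairpin, had the tightest groups of the 4 on the log2 scale (SD 0.06 for control and 0.21 for knockout libraries). It had 23.8, 22.2 and 24.0 RPM in control and 8.08, 10.7 and 8.16 RPM in the knockout libraries. Knockout replicate 3, the lowest library for both 3p entries, was in the middle of its group here. The means were 23.3 ± 0.978 and 8.99 ± 1.51 RPM (SD, n = 3 each), with a log2 fold change of -1.29 ± 0.47 (SE, limma adjusted p = 0.0846). The SE of this fit comes from the spread of entries of like level (limma gave it 4456 degrees of freedom), so the small spread of this entry hardly entered it. The exact 2-sided permutation test gave p = 0.1 for this and each of the other entries, the smallest that 3 against 3 libraries allow.

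The entry mmu-miR-126b-3p, from the opposite strand, was the most abundant of the 4 entries. It had 28.1, 39.9 and 35.6 RPM in control and 24.2, 21.5 and 7.07 RPM in the knockout libraries. Knockout replicates 1 and 2 lay close below the control range, and knockout replicate 3 far below it. The means were 34.6 ± 5.98 and 17.6 ± 9.22 RPM (SD, n = 3 each), with a log2 fold change of -1.08 ± 0.42 (SE, limma adjusted p = 0.107). Without knockout replicate 3 it was -0.56 (limma adjusted p = 0.295), so that 1 library held much of the difference.

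The entry mmu-miR-126b-5p, which is antisense to miR-126a-3p, was at the limit of detection. It had 3.60, 1.48 and 6.14 RPM (5, 2 and 10 reads) in the control and 1.24, 0 and 1.09 RPM (2, 0 and 2 reads) in the knockout libraries. No entry of any library stood at 1 read, so this 0 may stand for 0 or 1 read. All 3 knockout libraries and control replicate 2 lay under the level of 3 reads, and the lowest control and highest knockout library had 2 reads each. The fitted log2 fold change of -1.37 ± 0.76 (SE, limma adjusted p = 0.290) depends on the pseudocount, from -1.76 at 0.5 RPM to -0.57 at 5 RPM.

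**Figure D1:**
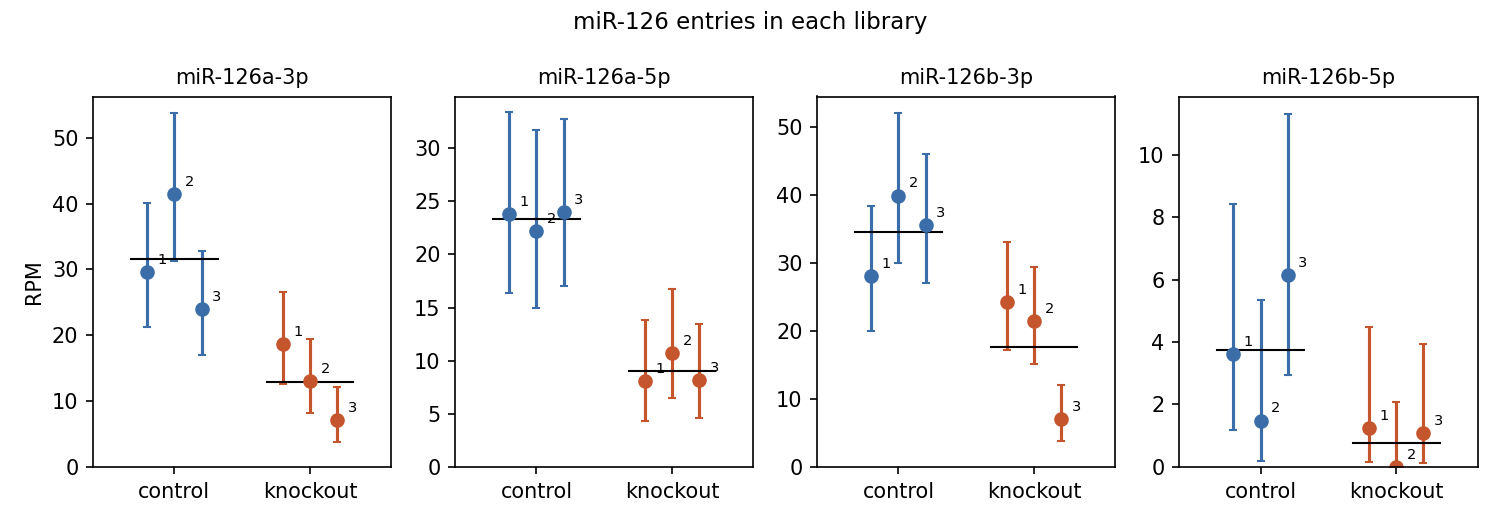
RPM of each miR-126 entry (vertical axes, from 0, a scale per panel) in the 3 control and 3 knockout libraries, numbered by replicate. Bars are exact Poisson 95% intervals for counting error and black lines the group means; in each panel every knockout point lies below every control point, for miR-126b-5p by less than the level of 1 read.

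For all 4 entries the groups did not overlap, with the knockout lower, which held for 19.3% of the 1114 tested entries; groups without overlap in either direction were found for 25.6%. The entries share a locus, so this count is not 4 separate observations. Every knockout library also lay below every control library for 18 of 24 tested vascular, 7 of 9 mesenchymal and 3 of 4 red blood cell miRNAs of the lists below. So it did for 2 of 3 miRNAs of white blood cells and platelets and for the 1 tested muscle miRNA, but for 0 of 4 epithelial miRNAs. Over the 4 entries the log2 fold changes ran from -1.37 to -1.08 with a median of -1.29; the median of all tested entries was -0.27, and that of the 274 annotated entries averaging at least 10 RPM was -0.59. Of these 274, 216 lay below 0 (78.8%). A log2 fold change below -1 was found for 11.8% of all tested entries. Abundant annotated miRNAs were therefore lower in general in the knockout libraries, and the miR-126 values stand on that background.

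**Figure D2:**
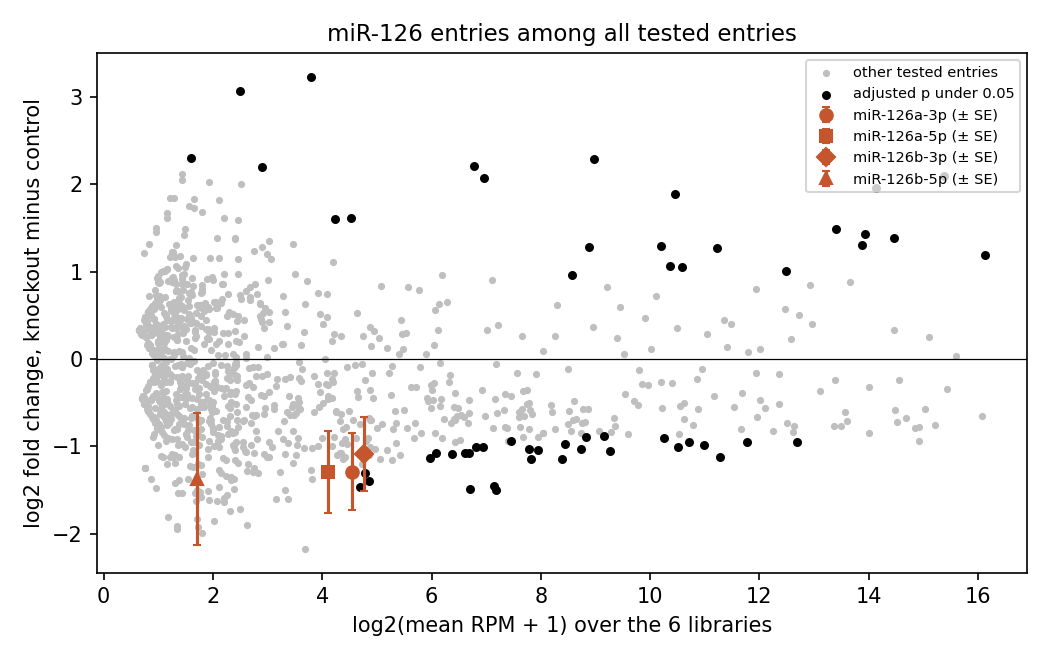
Log2 fold change of knockout minus control (vertical axis) against log2(mean RPM + 1) over the 6 libraries (horizontal axis) for 1114 tested entries. Black points passed the threshold. The miR-126 entries (orange, with SE) lie between -1.37 and -1.08 and did not pass. Of the 1114 entries, 41 lie below miR-126b-5p and 100 below miR-126b-3p.

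The sign of the 4 entries did not depend on the choices tried. Under 16 other settings each (other pseudocounts, filters and scalings, a replicate block, and each library left out), all 64 values lay below 0, and 2 of them, both of miR-126a-3p, passed the threshold. miR-126a-5p ran from -1.41 to -0.53 and miR-126b-3p from -1.39 to -0.32.

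**Figure D3:**
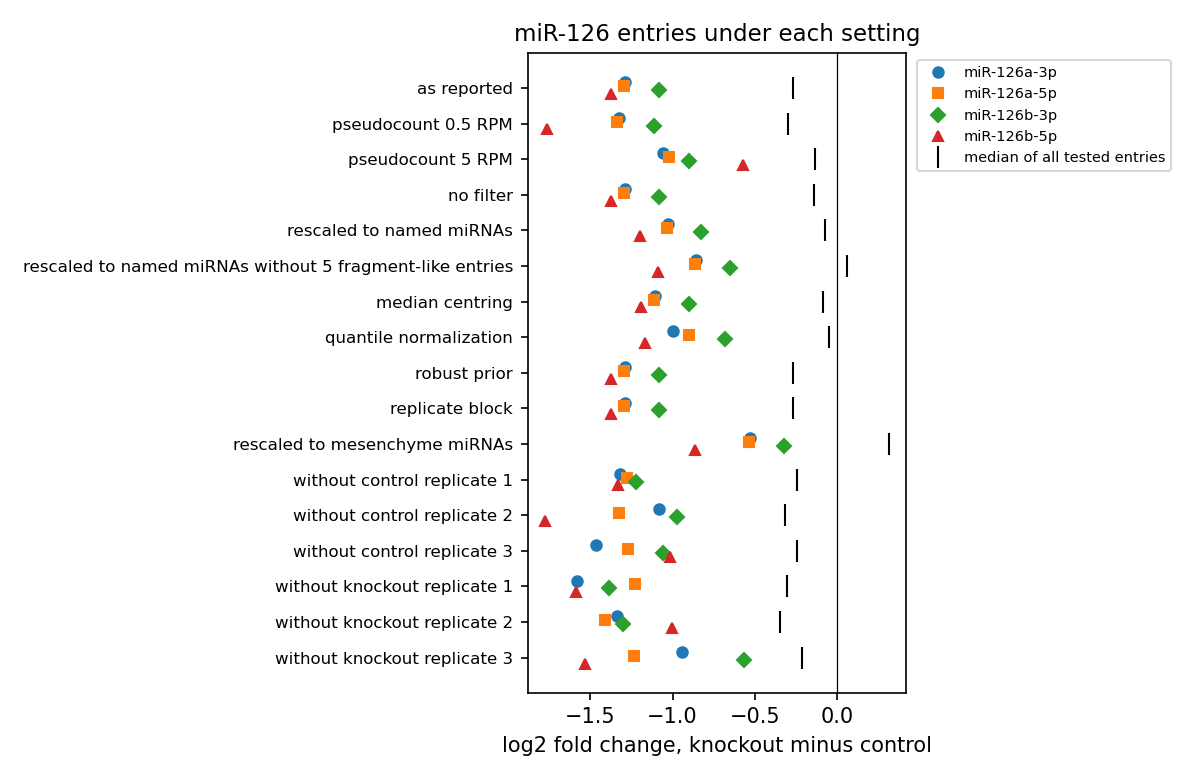
Log2 fold change of knockout minus control (horizontal axis) for each miR-126 entry under each setting (rows), with the median of all tested entries as a black tick. Every point of the 4 entries lies left of 0, and left of the tick of its row; the values lie nearest to 0 after rescaling to the mesenchymal miRNAs, except for miR-126b-5p, which is nearest to 0 with a pseudocount of 5 RPM.

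No difference in arm use between the groups was found, within wide limits. In the miR-126a hairpin the 3p arm gave 55.4%, 65.1% and 50.0% of the reads in the control and 69.8%, 54.8% and 46.4% in the knockout libraries, so neither arm dominated and the groups overlapped. The 95% Wilson intervals were as wide as 54.9% to 81.4% (knockout replicate 1, 43 reads), and cover counting error only. The group means were 56.8% ± 7.66 and 57.0% ± 11.8 (SD, n = 3 each). In the miR-126b hairpin the 3p arm gave 85.3% to 96.4% in the control and 86.7% to 100.0% in the knockout libraries, so nearly all reads of that strand were miR-126b-3p.

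The ratio of the arms was tested by limma over 214 hairpins with both arms past the filter, of which 0.935% passed and 15.9% had groups that did not overlap. The log2 ratio of 5p to 3p for miR-126a was -0.39 ± 0.44 in control and -0.40 ± 0.66 in knockout libraries (SD, n = 3 each). Their difference was -0.0040 (95% interval -1.32 to 1.32, limma adjusted p = 0.997). For miR-126b the difference was -0.29 (95% interval -2.19 to 1.61, limma adjusted p = 0.965). The intervals leave room for a change of more than 2-fold in either direction.

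The entries annotated on the minus strand held a large share of the locus reads in every library. miR-126b gave 37.3%, 39.4% and 46.6% of the locus reads in the control and 48.8%, 47.5% and 34.9% in the knockout libraries. The knockout range enclosed the control range. The means were 41.1% ± 4.86 and 43.7% ± 7.69 (SD, n = 3 each). This share came almost wholly from one side of the hairpin. Where the stems of miR-126a-5p and miR-126b-3p face each other, the minus strand gave 54.2% to 64.3% of the reads in the control and 46.4% to 75.0% in the knockout libraries. Where miR-126a-3p and miR-126b-5p face each other, it gave 3.45% to 20.4% and 0% to 13.3%. The sources used here do not say how the authors treated the strand of a read. These shares are therefore of reads as the authors assigned them. Whether some reads of miR-126b-3p came from the plus strand was not tested.

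**Figure D4:**
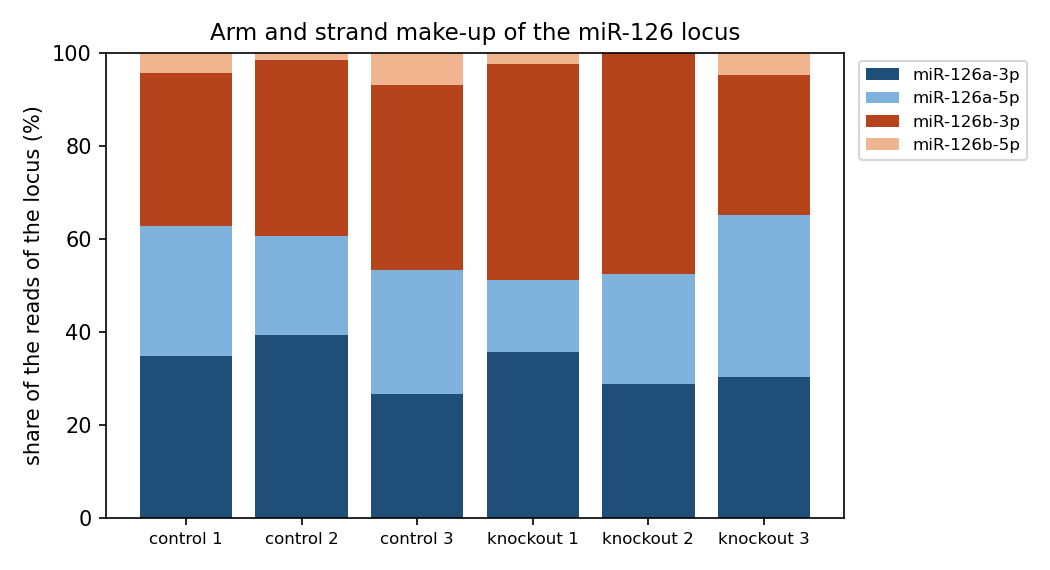
Share of the locus reads (vertical axis, percent) held by each entry in each library. Blue marks the miR-126a and orange the miR-126b strand; miR-126b-3p gave 30.2% to 47.5% of the reads and miR-126b-5p 0% to 6.85%, with no separation of the groups.

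By level, miR-126b-3p ranked 198, miR-126a-3p 209, miR-126a-5p 236 and miR-126b-5p 529 among the 1528 annotated entries by mean RPM. Their means over all libraries were 26.1, 22.3, 16.2 and 2.26 RPM. The first and second did not differ beyond their spread, since their libraries overlapped in both groups. miR-126a-5p lay below miR-126b-3p in every control library but overlapped it in the knockout group. Next above miR-126a-3p came miR-31-3p (22.5 RPM), miR-6995-3p (23.1 RPM) and miR-3473b (23.7 RPM), and next below it miR-668-3p (22.1 RPM), let-7b-3p (21.5 RPM) and miR-7a-5p (20.8 RPM). The SD of miR-126a-3p over its 6 libraries was 12.3 RPM, which includes the difference between the groups. These neighbours were chosen by mean RPM, so their closeness to it was set by the choice. Their log2 fold changes were mixed, from -0.69 for miR-31-3p to 1.62 for miR-668-3p, a Dlk1-Dio3 miRNA that rose in the knockout (limma adjusted p = 0.0146). Its call was lost without control replicate 2 or 3 or knockout replicate 1 or 2 (1.38 to 1.45, limma adjusted p from 0.0930 to 0.163).

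The annotated miRNAs whose log2(RPM + 1) ran most like that of the summed locus over the 6 libraries were miR-107-3p (Pearson r = 0.987), miR-125b-1-3p (0.984), miR-30b-5p (0.984), let-7c-5p (0.983), miR-122-5p (0.982) and let-7b-5p (0.982). These correlations are descriptions over 6 libraries that share their totals and fall into 2 groups, and they mark nothing particular: of the 271 annotated entries averaging at least 10 RPM that are not from the locus, 120 had r above 0.9. miR-107-3p, for example, had 79.3, 82.8 and 88.5 RPM in control and 49.7, 47.4 and 22.3 RPM in the knockout libraries. Like the locus, it was lowest in knockout replicate 3.

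Other miRNAs studied in endothelial cells and vessel growth were taken as a list of 25, none of them specific to the endothelium. Of the 24 tested, 1 was lower and 0 were higher past the threshold, where 2.69% and 2.15% of all tested entries were. Below 0 lay 22 of the 24, against 60.1% of all tested entries, and all 19 that averaged at least 10 RPM, against 78.8% of annotated entries at such levels. The median of the list was -0.59, the same as for those annotated entries. Its summed level in the knockout was 0.648 of that in the control, and the groups did not overlap. The median turned to 0.17 when libraries were rescaled to the mesenchymal miRNAs, an alternative that was chosen after the data had been seen. The one that fell was miR-503-5p, a miRNA that restrains the cell cycle, with 199, 181 and 243 RPM in control and 95.8, 102 and 38.6 RPM in the knockout libraries (log2 fold change -1.497 ± 0.32 SE, limma adjusted p = 0.000329). Its call was lost without control replicate 3 (-1.38, limma adjusted p = 0.0608) and after the mesenchymal rescaling (-0.69, limma adjusted p = 0.0851). The most abundant members did not pass: miR-100-5p had -0.72, miR-27b-3p -0.77, miR-10a-5p -0.16, miR-23a-3p -0.54, miR-146a-5p -0.58 and miR-27a-3p -0.75. The tested members above 0 were miR-218-5p (1.37) and miR-155-5p (0.78), both averaging under 10 RPM, and neither passed. miR-139-5p, which is enriched in vessel endothelium and was named for that and not by level, had a mean of only 1.04 RPM.

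The summed levels of both blood cell lists were lower in the knockout, like most abundant annotated miRNAs. Of the annotated entries averaging at least 10 RPM, 78.8% had a log2 fold change below 0. All 5 miRNAs of white blood cells and platelets were listed, and their summed level was 56.2 to 73.1 RPM in control and 15.8 to 43.5 RPM in the knockout libraries. Most of it was miR-142a-5p, with 26.7, 37.7 and 51.0 RPM in control and 21.8, 18.1 and 12.0 RPM in the knockout libraries, and miR-150-5p, a lymphocyte miRNA. Of the defining markers, miR-142a-3p was at 0 in 4 of 6 libraries and miR-223-3p, a myeloid and platelet miRNA, reached at most 5.18 RPM. None of the 3 tested passed the threshold, where 4.85% of all tested entries did. For red blood cells, 4 of 5 miRNAs were listed, with 560 to 833 RPM in control and 248 to 441 RPM in the knockout libraries. Of the 4 tested members 2 passed, both lower, where 2.69% of all tested entries were. These were miR-144-3p (-1.47, limma adjusted p = 0.0236) and miR-486b-5p (-1.03, limma adjusted p = 0.0172). Both calls were lost whichever control library was left out, with limma adjusted p from 0.0519 to 0.242. They were also lost with libraries rescaled to the annotated miRNAs (-1.21 and -0.76, limma adjusted p = 0.0563 and 0.0613). The erythroid miR-451a had -0.85. miR-144-5p, the partner arm of miR-144-3p, overlapped between the groups, with 12.3, 8.88 and 14.7 RPM in control and 10.6, 10.7 and 10.9 RPM in the knockout libraries (-0.12, limma adjusted p = 0.894). Its log2 fold change turned above 0 under every other scaling tried (0.064 to 0.64). The part of such cells in the miR-126 values was not tested.

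The mesenchymal list was lower as well, with 4 of 9 tested members past the threshold and lower, where 2.69% of all tested entries were. These were miR-199b-3p (-0.95), miR-214-3p (-1.05), miR-145a-3p (-0.89) and miR-143-5p (-1.01). All 4 calls were lost whichever control library was left out (limma adjusted p from 0.0694 to 0.279). The most abundant members of this list, miR-143-3p (-0.94) and miR-199a-5p (-0.68), did not pass. miR-145a-5p, the partner arm of miR-145a-3p, was the only tested member above 0 (0.11, limma adjusted p = 0.834). It had 1182, 999.2 and 808.5 RPM in control and 1141, 1109 and 959 RPM in the knockout libraries, and the groups overlapped. Of the epithelial list all 6 were listed, at 21.4 to 25.2 RPM in control and 16.9 to 31.1 RPM in the knockout libraries, and 0 of 4 tested passed; the most abundant were miR-200a-3p (-0.31) and miR-200b-3p (0.03), both under 10 RPM. Of striated muscle 3 of 6 were listed, with 71.0 to 85.1 RPM in control and 40.3 to 57.6 RPM in the knockout libraries, so that this sum was lower too. Nearly all of it was miR-206-3p (-0.56, limma adjusted p = 0.380), while miR-1a-3p and miR-133a-3p, which define muscle, were at 0 in 4 of 6 libraries each.

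Set against each list except the epithelial list, the difference of the locus narrowed. Those lists were themselves lower in the knockout, so the narrowing follows from dividing by them and marks no cell type. Per 1000 reads of the mesenchymal miRNAs, the locus had 0.968, 1.32 and 1.09 reads in the control and 0.886, 0.742 and 0.788 reads in the knockout libraries. The groups still did not overlap, but the ratio of means was 0.716, against 0.432 on the RPM scale. When all libraries were rescaled to the mesenchymal miRNAs, the log2 fold change was -0.53 for miR-126a-3p and for miR-126a-5p, -0.32 for miR-126b-3p and -0.86 for miR-126b-5p (limma adjusted p from 0.490 to 0.708). Against the white blood cell and platelet list the groups overlapped: the locus had 1513, 1495 and 1227 reads per 1000 in the control and 1200, 1176 and 1483 in the knockout libraries. Against the red blood cell list they overlapped too (102 to 188 and 94.5 to 131 reads per 1000). The ratio of means was 0.911 for the white blood cell and platelet list and 0.814 for the red blood cell list. The groups did not overlap against the other lists, where the ratio of means was 0.406 for the epithelial, 0.612 for the muscle and 0.649 for the vascular list.

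**Figure D5:**
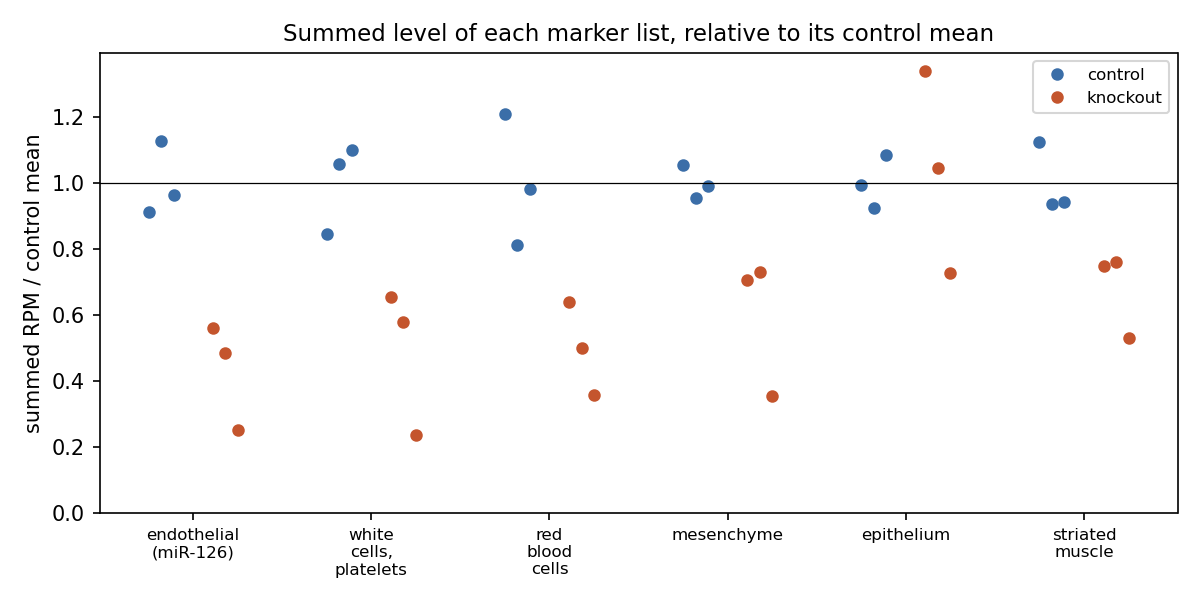
Summed RPM of each marker list in each library, divided by the control mean of that list (vertical axis, from 0). Control libraries are blue and knockout libraries orange, in order of replicate; the miR-126 locus (ratio of means 0.432), white blood cell and platelet (0.490), red blood cell (0.4999), mesenchymal (0.598) and striated muscle (0.679) lists lay lower in the knockout libraries, and the epithelial list (1.04) overlapped.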

How the data were processed

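Small RNA from vesicles of 6 libraries was analysed from 1 deposited table. The authors deposited RPM values, per the file headers; each column sums to 1000000. The submitters' processing notes name fastp and edgeR, with no role or version. The sources used here do not give the aligner, the miRNA annotation or the genome build. All values were whole multiples, within 0.001 read, of 0.5 of the lowest value above 0 in the column. That lowest value stands for 2 reads, and 0 entries stood at 1 read, so no count model was run. Groups come from the sample titles. limma 3.58.1 in R 4.3.3 was fitted, with a trend of the variance on the mean, to log2(RPM + 1) of entries with at least 1 RPM in at least 3 libraries (2-sided). It was also run on simulated data with as many rises as falls. Abundant annotated miRNAs were lower in general here, so that run does not show how the fit behaves on these libraries. Arm ratios used log2((5p RPM + 1)/(3p RPM + 1)). Marker lists and the rule for named entries (all members, the 6 entries most like the locus, the 3 next above and below miR-126a-3p, the most abundant and the called list members) were set with earlier results of these data known, as were the members. Alternatives were other pseudocounts, no filter, 4 other scalings, a robust prior, a replicate block and leaving out each library; rescaling to the mesenchymal miRNAs was added after seeing the data.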

Additional observations from a re-analysis of the deposited data

How the results depend on the processing

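All 64 values of the 4 entries under 16 alternatives each stayed below 0, and 2 of them passed the threshold. The count of entries past it was 0, and 1 with a pseudocount of 5 RPM (miR-126a-3p, -1.06); with a library left out it was 0 to 1, and miR-126a-3p had -1.58 to -0.94. The locus ratio was 0.368 to 0.522 with a library left out, 0.507 and 0.576 with rescaling to annotated miRNAs and to these without 5 fragment-like entries, and 0.716 with rescaling to the mesenchymal miRNAs. The median of all entries moved from -0.27 to -0.07, 0.06 and 0.32 under these 3 scalings. Of the vascular list, 2 were lower with quantile normalization, 0 after the mesenchymal rescaling (median 0.17) and 0 to 2 with a library left out; the cause was not tested. The arm ratio changes near 0 had no firm sign: with a pseudocount of 5 RPM they were 0.037 for miR-126a and 0.33 for miR-126b, and with a library left out -0.29 to 0.36 and -0.97 to 0.30. Same-numbered libraries did not deviate together (r = 0.01, -0.02 and 0.01), and differently numbered ones had r from -0.08 to 0.07. With few reads behind most entries, this check cannot show whether the replicates are paired, which the sources used here do not say. With a replicate block, miR-126a-3p had a limma adjusted p = 0.101 and 0 of 4 entries passed. Count models were planned and not run. With 43 to 146 reads per library for the locus, depth limits every share and arm ratio.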

Other observations

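Hairpins annotated on opposite strands of the same place, with at least 30 overlapping bases, were compared after the miR-126 values had been seen. Of 14 such pairs with entries of both strands in the table, 6 had a summed mean of at least 10 RPM, or 5 loci when the miR-24 pairs, which share entries, count once. From the mean levels of each group, the lesser strand gave 41.1% of the miR-126 locus in the control and 45.6% in the knockout. For miR-136 and miR-3071 it gave 34.8% and 13.0%, at mean levels of only 9.50 and 2.67 RPM for the strands. In the control, miR-3071-3p had 3.48 ± 6.03 RPM (mean and SD), so its reads there came from 1 library. Of that pair miR-136-5p rose (2.20, limma adjusted p = 0.0296), a call that was lost without control replicate 3 (1.55, limma adjusted p = 0.252), knockout replicate 2 (2.26, limma adjusted p = 0.0560) or knockout replicate 3 (1.93, limma adjusted p = 0.183), and with rescaling to annotated miRNAs (2.42, limma adjusted p = 0.0528). The lesser strand gave 4.99% and 11.5% for miR-451a and miR-451b, and 3.15% and 0% for miR-3083b and miR-3083. The mean level of miR-3083 was only 0.205 RPM, less than 1 read per library. The differences between groups in these shares were not tested. For miR-24-3p and miR-3074-5p the levels were 1687 RPM for miR-3074-5p and 434 RPM for miR-24-3p, which is abundant in most tissues (means over 6 libraries). miR-3074-5p fell in the knockout (-0.95, limma adjusted p = 0.0306), a call that was lost without any 1 of the control libraries (limma adjusted p from 0.103 to 0.252), without knockout replicate 3 (-0.49, limma adjusted p = 0.133) and under every other scaling tried (-0.82 to -0.14). miR-24-3p had -0.57 (limma adjusted p = 0.243). The mature sequences of this pair are made from 2 loci each, so their strand shares belong to no single place.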
